A study of Mus musculus with 12 samples.

Results

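The 8 genes described here, called the 8 TOP genes, were followed through every library of a ribosome profiling study of RAW264 cells, a mouse macrophage line: Eef1a1, Eef1b2, Eef1d, Eef1g, Eef2, Tpt1, Pabpc1 and Naca. They were chosen by name, all 8 were found among the 9621 listed genes, and all 8 passed the filter on low values. One group of cells had no stimulus and is called basal. Another was stimulated for 30 min with 100 ng/ml of lipopolysaccharide (LPS), an outer membrane molecule of bacteria that macrophages sense. The third had LPS together with 10 µM dexamethasone (DEX), a synthetic glucocorticoid, also for 30 min. All cells, basal ones included, received cycloheximide at 100 µg/ml before extraction, a drug that holds cytosolic ribosomes on their mRNA. Poly(A) mRNA and ribosome-protected fragments (RPF, or footprints) were each sequenced from 2 independent biological replicates per treatment, which gives 12 libraries.

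Translation elongation is carried by eEF1A, which brings aminoacyl-tRNA to the ribosome, by the eEF1B complex, which reloads eEF1A with GTP, and by eEF2, which moves the ribosome along the mRNA. Their mRNAs, like those of ribosomal proteins, belong to the TOP class: the transcript begins with a C followed by an unbroken run of pyrimidines (C or T in the gene), called the 5′ terminal oligopyrimidine tract. TOP mRNAs are known for a translation that rises and falls together under control of the kinase complex mTORC1 and of the cap-binding protein LARP1. Tpt1, Pabpc1 and Naca are TOP mRNAs of other functions.

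The annotated start sites show how far this tract can be read from a reference gene model. RefSeq promoters (build GRCm38.p6) were available for 5 of the 8 genes: Eef1a1, Eef1b2, Eef2, Tpt1 and Naca. Each line gives the 15 bases before and the 15 bases from the annotated start, with capitals for the longest unbroken run of C or T that touches the 5 bases on either side of the start base. The windows are chr9:78481710-78481739 (minus strand) for Eef1a1, chr1:63176816-63176845 for Eef1b2, chr10:81176616-81176645 for Eef2, chr14:75845241-75845270 for Tpt1 and chr10:128035331-128035360 for Naca, the last 4 on the plus strand.
Eef1a1: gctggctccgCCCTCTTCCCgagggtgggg
Eef1b2: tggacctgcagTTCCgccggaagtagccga
Eef2: tataaaaggCCgggcgttgacgtcagcggt
Tpt1: gtcaccgctgacgacagTTCCgggggagcc
Naca: gcaactcgTTCTCTTaaagaggaaacccgg
The run was 10 bases long in Eef1a1 and 7 in Naca, 4 in Eef1b2 and in Tpt1, and 2 in Eef2. A run of at least 5 bases that holds a C was present in 2 of these 5 promoters. The same held for 36 of 70 promoters of ribosomal protein genes (51.4%) and 32.4% of the 32851 promoters of all genes. The base at the annotated start was T in Eef1a1, G in Eef1b2 and Eef2, and A in Tpt1 and Naca, never C. The Naca run lay wholly before the start, at positions -7 to -1, and the Eef1a1 run spanned it, at -5 to 5. In Eef2 the longest run within the 50 bases from the annotated start lay further in, at positions 15 to 22 (chr10:81176634-81176663, plus strand), and this window was chosen after the others were read. Such runs were not particular to Eef2. Among runs that begin within the same 50 bases, the longest was 6 bases at positions 41 to 46 in Tpt1. It was 5 bases at positions 33 to 37 in Eef1b2, and 4 bases in Eef1a1 and in Naca. The Eef1a1 run printed above begins before the start and was left out here, though it continues to position 5.
Eef2: gacgtcagcggTCTCTTCCgccgcagccgc
These runs describe the annotated starts only, since the position at which RAW264 cells start these transcripts was not measured.

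The libraries held 821946 to 2529666 reads, and each of the 8 genes had at least 450 reads in every library. Replicate 1 of the basal mRNA libraries was less like the other mRNA libraries (Spearman 0.781 to 0.831 across genes). Each of the other mRNA libraries reached 0.946 to 0.98 with its closest mRNA library, and footprint libraries gave 0.94 to 0.983 among themselves. Of 10 macrophage markers 9 were listed, with a summed level of 4850 to 6480 CPM in every library, and Mrc1 was not among the listed genes. Of 13 markers of other cell types only the keratin Krt7 was listed, at 1110 CPM in mRNA basal replicate 1 and at most 2.43 CPM elsewhere; its part in the results was not tested. Values are CPM, a gene's reads over the library's total, scaled to the same total in each library and not divided by gene length, so levels are compared within a gene and not between genes. Because they are shares of a library, a change is relative to that total. Scaling by the median of ratios instead, which sets the typical gene to no change, lowered the mRNA changes against basal, for LPS and then LPS + DEX, by a median of 0.26 and 0.28 (log2) and raised the changes of translational efficiency (TE) by 0.29 and 0.33. Results that turn on this are given both ways. Both treated groups were compared with the same basal libraries, and the samples are bulk lysates, in which fewer cells of a type and less RNA per cell cannot be told apart.

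**Figure D1:**
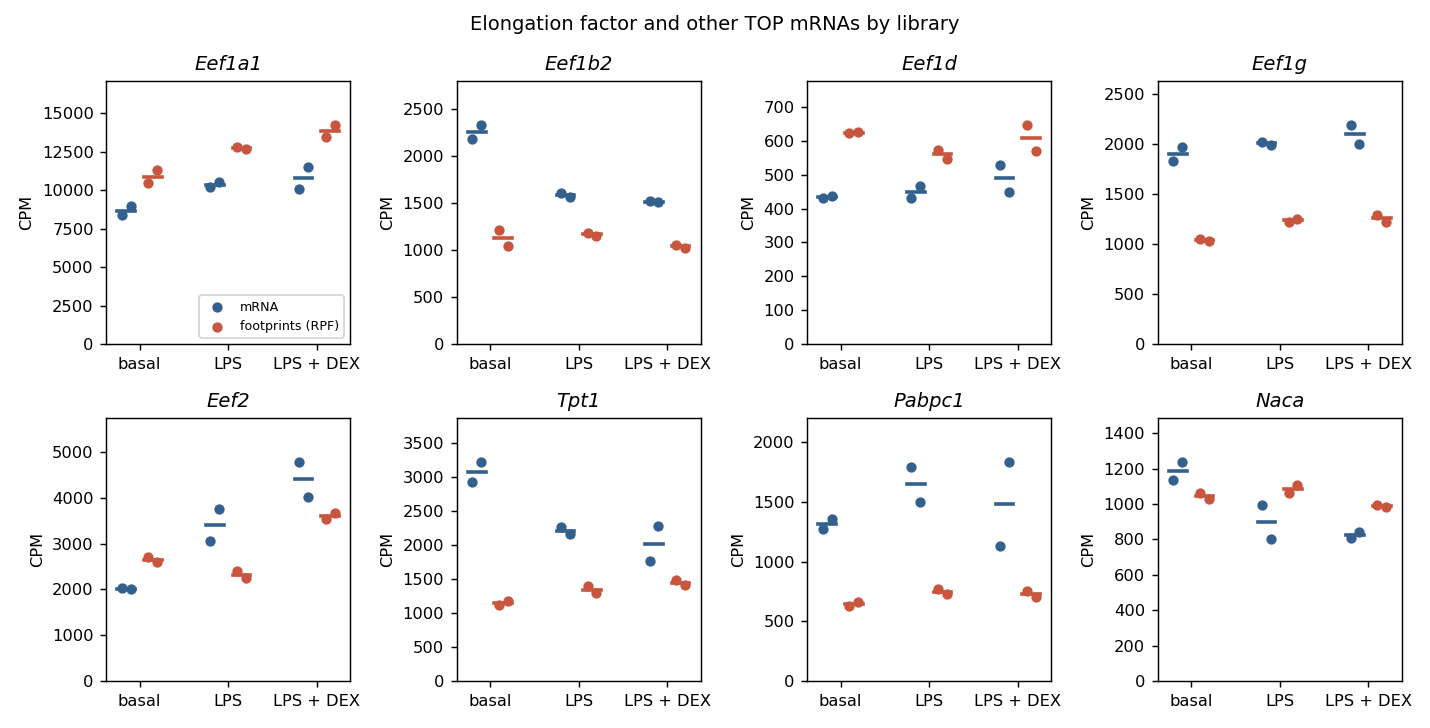
CPM of the 8 TOP genes in mRNA (blue) and footprints (red) for basal, LPS and LPS + DEX cells; each point is 1 library, each bar the mean of 2, and each panel has its own axis from 0. Eef2 mRNA is lowest in basal cells while its footprints are lowest after LPS, and Tpt1 and Eef1b2 mRNA are highest in basal cells.

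Together the 8 genes took 2.08% ± 0.096 of the mRNA reads in basal cells (mean ± SD, n = 2), 2.26% ± 0.0308 after LPS and 2.36% ± 0.114 with LPS + DEX. Of the footprints they took 1.92% ± 0.0437, 2.12% ± 0.0245 and 2.35% ± 0.0412. In footprints the 3 treatments did not overlap; in mRNA the lower LPS + DEX library and the higher LPS library were both at 2.28%. These sums are dominated by Eef1a1 and were not tested.

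The mRNA and footprints of Eef2 parted after LPS, while with LPS + DEX both were above basal. Eef2 encodes the GTPase that drives translocation. Its mRNA measured 2028 and 2007 CPM in basal cells, 3057 and 3757 after LPS, and 4797 and 4029 with LPS + DEX. Both treated groups lay above the basal libraries, and the LPS + DEX libraries lay above the LPS libraries. Eef2 mRNA rose by 0.75 ± 0.14 (log2 fold change ± SE; limma, adjusted p = 0.0253) after LPS and by 1.12 ± 0.14 (adjusted p = 0.00693) with LPS + DEX, while DEX added to LPS gave 0.38 ± 0.14, which did not pass (adjusted p = 1). With median-of-ratios scaling the rise after LPS was 0.48 and did not pass (adjusted p = 0.0955), and that with LPS + DEX was 0.83 (adjusted p = 0.0134). The call after LPS was lost without mRNA LPS replicate 1 (0.90, adjusted p = 0.0622) or replicate 2 (0.60, adjusted p = 0.192), and that with LPS + DEX without mRNA LPS + DEX replicate 1 (1, adjusted p = 0.0711).

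Eef2 footprints took another course. They measured 2710 and 2596 CPM in basal cells, 2397 and 2252 after LPS, and 3547 and 3667 with LPS + DEX. The LPS libraries were the lowest and the LPS + DEX libraries the highest, with no overlap. The difference of LPS from basal was -0.19 ± 0.07 (adjusted p = 0.119) and did not pass. DEX added to LPS raised Eef2 footprints by 0.63 ± 0.07 (adjusted p = 9.67e-05), a 1.55-fold difference that held without each of the 6 footprint libraries (0.59 to 0.68) and with median-of-ratios scaling (0.62). LPS + DEX against basal gave 0.44 ± 0.07 (adjusted p = 0.00196; 0.42 and adjusted p = 0.0599 without RPF LPS + DEX replicate 2).

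The TE of Eef2, its footprints over its mRNA, went from a ratio of 1.31 in basal cells to 0.682 after LPS and 0.817 with LPS + DEX. The fall after LPS was -0.94 ± 0.15 on the log2 scale (adjusted p = 0.00234), -0.64 with median-of-ratios scaling (adjusted p = 0.0159), and it passed without each of the 12 libraries (-1.09 to -0.79). The fall with LPS + DEX was -0.68 ± 0.15 (adjusted p = 0.0108), but -0.34 with median-of-ratios scaling (adjusted p = 0.164) and -0.66 without RPF LPS + DEX replicate 1 (adjusted p = 0.0524). DEX added to LPS gave a TE difference of 0.26 ± 0.15 that did not pass (adjusted p = 0.9), so a change in the TE of Eef2 with DEX was not detected.

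Eef1a1 encodes eEF1A, the carrier of aminoacyl-tRNA and one of the most abundant proteins of the cell. Its footprints measured 10449 and 11308 CPM in basal cells, 12763 and 12689 after LPS, and 13453 and 14228 with LPS + DEX. The 3 treatments did not overlap. Footprints rose with LPS + DEX by 0.35 ± 0.07 (adjusted p = 0.00629), a call lost without RPF LPS + DEX replicate 2 (0.31, adjusted p = 0.115). The rise after LPS of 0.23 ± 0.07 lay just inside the threshold (adjusted p = 0.0485) and was lost with log2(CPM + 2) (adjusted p = 0.0504), with no filter on low values (adjusted p = 0.131), and without any of the 4 LPS and LPS + DEX footprint libraries (0.22 to 0.23). Eef1a1 mRNA measured 8357 and 8948.5 CPM in basal cells, 10182.5 and 10538 after LPS, and 10085 and 11485 with LPS + DEX. The treated libraries were above the basal ones, but neither difference passed (0.26 ± 0.11, adjusted p = 0.159, and 0.32 ± 0.11, adjusted p = 0.0762), and with median-of-ratios scaling they were 0 and 0.02. TE stayed between ratios of 1.23 and 1.28, and its changes against basal were -0.03 (95% interval -0.27 to 0.2) and 0.03 (-0.2 to 0.27). With median-of-ratios scaling they were 0.26 (adjusted p = 0.105) and 0.37, and the second passed (adjusted p = 0.0345). Near-identical Eef1a1 pseudogenes exist in the mouse genome, and how the authors counted reads that fit several copies is not given in the sources used here, which makes levels of Eef1a1, Tpt1 and Naca less certain.

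The eEF1B complex is made of Eef1b2 and Eef1d, which are the nucleotide exchange subunits, and Eef1g, which holds the complex together. Eef1b2 mRNA measured 2180.2 and 2335 CPM in basal cells, 1608 and 1570.5 after LPS, and 1519.6 and 1514 with LPS + DEX. All 4 treated libraries lay below both basal ones. It fell by 0.51 ± 0.1 (log2) after LPS (adjusted p = 0.0272) and by 0.57 ± 0.1 with LPS + DEX (adjusted p = 0.0105), or by 0.77 and 0.87 with median-of-ratios scaling. The size was steady without single libraries (-0.55 to -0.46 and -0.62 to -0.52), but the LPS call was lost without any of mRNA basal replicate 1 (adjusted p = 0.05), basal replicate 2, LPS replicate 1 or LPS replicate 2 (adjusted p = 0.199), and the LPS + DEX call without mRNA LPS + DEX replicate 1 (adjusted p = 0.0714).

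Eef1b2 footprints were 1217 and 1047 CPM in basal cells, 1188 and 1152 after LPS, and 1058 and 1023 with LPS + DEX, so that the basal pair overlapped with both treated groups. The changes against basal were 0.05 ± 0.09 and -0.12 ± 0.09 and did not pass. TE of Eef1b2 rose by 0.56 ± 0.13 after LPS (adjusted p = 0.011), from a ratio of 0.502 to 0.736, and this passed without each of the 12 libraries (0.45 to 0.67) and with median-of-ratios scaling (0.85). With LPS + DEX the rise was 0.45 ± 0.13 (adjusted p = 0.0302; 0.35 and adjusted p = 0.109 without RPF basal replicate 2, and lost also without mRNA basal replicate 2, mRNA LPS + DEX replicate 1 or either RPF LPS + DEX library).

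Eef1g mRNA measured 1829 and 1976 CPM in basal cells, 2021 and 1994 after LPS, and 2192 and 2002 with LPS + DEX. The treated libraries were slightly above the basal ones, with differences of 0.08 (95% interval -0.17 to 0.32) and 0.14 (-0.1 to 0.38) that turned to -0.19 and -0.15 with median-of-ratios scaling. Eef1g footprints measured 1047 and 1029.8 CPM in basal cells, 1225 and 1253 after LPS, and 1295 and 1224 with LPS + DEX. Both treated groups were above basal, at 0.25 ± 0.08 (adjusted p = 0.0573) and 0.28 ± 0.08 (adjusted p = 0.0534), just short of the threshold, and with median-of-ratios scaling both passed (adjusted p = 0.0273 and 0.0313). TE of Eef1g measured 0.18 ± 0.12 and 0.14 ± 0.12 against basal and did not pass (adjusted p = 0.316 and 0.461), but with median-of-ratios scaling it was 0.47 in both and passed (adjusted p = 0.0223 and 0.0241). Eef1d mRNA measured 432 and 436 CPM in basal cells, 430.3 and 465 after LPS, and 529 and 450.2 with LPS + DEX. Eef1d footprints were 623.5 and 625, 574 and 547.5, and 647 and 569.9 CPM in the same order. None of the 9 comparisons between treatments passed for Eef1d, with changes from -0.21 to 0.17 (log2).

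**Figure D2:**
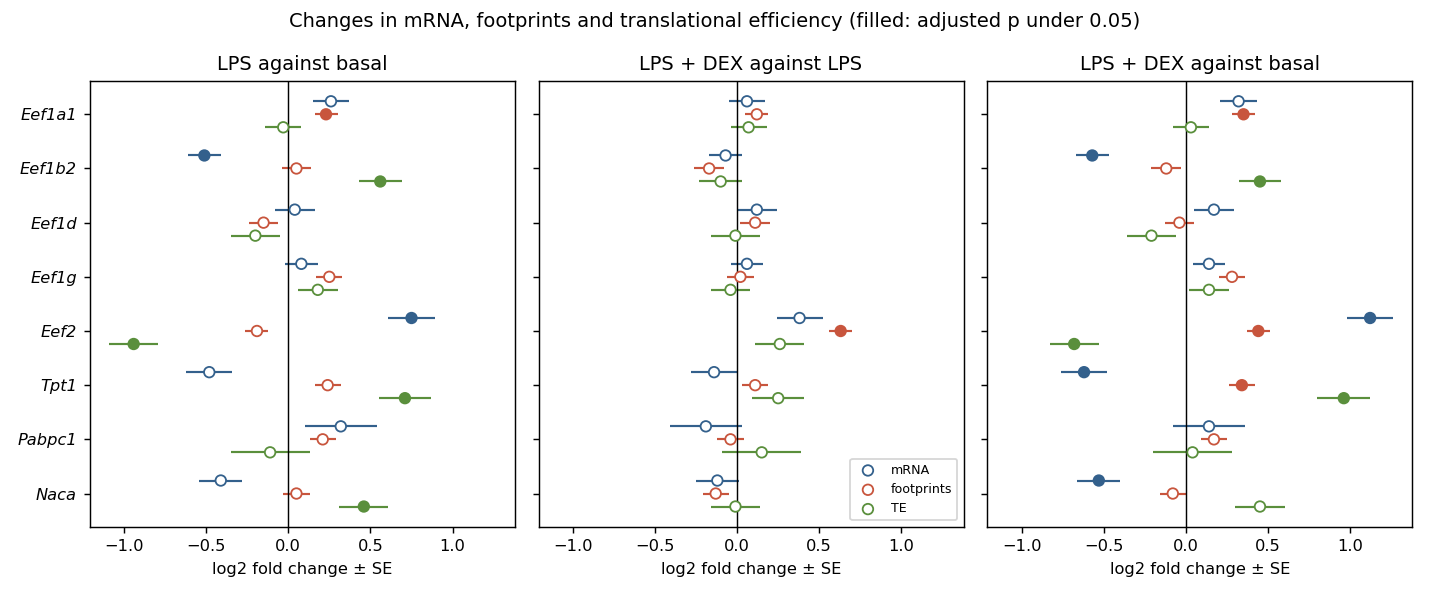
Log2 fold changes with SE of the 8 TOP genes in mRNA (blue), footprints (red) and TE (green) for the 3 treatment comparisons; filled points have an adjusted p under 0.05. Eef2 lies at 0.75 in mRNA and -0.94 in TE after LPS, while Tpt1, Eef1b2 and Naca lie on the opposite sides, and the only filled point for DEX added to LPS is Eef2 footprints.

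Tpt1 encodes the translationally controlled tumor protein TCTP, a conserved growth-related protein whose mRNA is a textbook TOP transcript. Tpt1 mRNA measured 2933 and 3229 CPM in basal cells, 2262 and 2158 after LPS, and 1763.5 and 2274 with LPS + DEX. All treated libraries were below both basal ones. It fell by 0.62 ± 0.14 (log2) with LPS + DEX (adjusted p = 0.0203; -0.44 and adjusted p = 0.0898 without mRNA LPS + DEX replicate 1), and after LPS the difference was -0.48 ± 0.14 (adjusted p = 0.0641), which with median-of-ratios scaling was -0.74 and passed (adjusted p = 0.0229).

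Tpt1 footprints were lowest in basal cells, where its mRNA was highest. They measured 1110.4 and 1173 CPM in basal cells, 1394 and 1296 after LPS, and 1482 and 1414 with LPS + DEX, with no overlap between the treatments. The rise with LPS + DEX was 0.34 ± 0.08 (adjusted p = 0.0209; lost without RPF LPS + DEX replicate 1, at 0.31 and adjusted p = 0.241, or replicate 2, at 0.38 and adjusted p = 0.139). After LPS the difference was 0.24 ± 0.08 (adjusted p = 0.0857; 0.3 and adjusted p = 0.0383 with median-of-ratios scaling). TE of Tpt1 went from a ratio of 0.371 in basal cells to 0.608 and 0.717. It rose by 0.71 ± 0.16 after LPS (adjusted p = 0.00942) and by 0.96 ± 0.16 with LPS + DEX (adjusted p = 0.00302). Both rises passed without each of the 12 libraries (0.64 to 0.78 and 0.78 to 1.15) and with median-of-ratios scaling (1.01 and 1.3).

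Naca encodes the α subunit of the nascent polypeptide-associated complex, which binds growing chains at the ribosome exit. Naca mRNA measured 1139 and 1240.2 CPM in basal cells, 995 and 803 after LPS, and 806 and 841 with LPS + DEX. The treated libraries were below the basal ones. It fell by 0.53 ± 0.13 (log2) with LPS + DEX (adjusted p = 0.0271), a call lost without mRNA basal replicate 2 (adjusted p = 0.0617), mRNA LPS + DEX replicate 1 (adjusted p = 0.123) or replicate 2 (adjusted p = 0.0772). After LPS it was -0.41 ± 0.13 (adjusted p = 0.0809), and with median-of-ratios scaling -0.67 (adjusted p = 0.0362). Naca footprints were 1062 and 1031 CPM, 1062 and 1106, and 997 and 984 in the same order, with changes against basal of 0.05 (95% interval -0.11 to 0.22) and -0.08 (-0.24 to 0.09). TE of Naca rose by 0.46 ± 0.15 after LPS (adjusted p = 0.0478), a call that was lost without any of the 6 footprint libraries, without either basal mRNA library or without mRNA LPS replicate 2 (0.31, adjusted p = 0.169), with values from 0.31 to 0.62, and also with limma-voom (0.48, adjusted p = 0.0633). With LPS + DEX it measured 0.45 ± 0.15 (adjusted p = 0.0556), and 0.79 with median-of-ratios scaling (adjusted p = 0.0065).

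Pabpc1 encodes the cytoplasmic poly(A)-binding protein, which coats mRNA tails and binds the initiation factor eIF4G. Its mRNA measured 1269 and 1353 CPM in basal cells, 1794 and 1499 after LPS, and 1127 and 1837 with LPS + DEX, so that the replicates of the last group lay on either side of basal. No comparison between treatments passed for Pabpc1: mRNA differed from basal by 0.32 (95% interval -0.18 to 0.83) and 0.14 (-0.37 to 0.64). Its footprints were 629.6 and 658 CPM in basal cells, 767 and 727.5 after LPS, and 751 and 701 with LPS + DEX. Both treated groups lay above basal, by 0.21 ± 0.08 (adjusted p = 0.141) and 0.17 ± 0.08 (adjusted p = 0.306). TE ratios of 0.491, 0.454 and 0.49 give changes with wide intervals of -0.63 to 0.41 and -0.48 to 0.56.

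Counted over the set, 2 of the 8 genes passed in mRNA after LPS, Eef2 higher and Eef1b2 lower, where 10.7% of all genes tested passed (9.03% higher and 1.68% lower). With median-of-ratios scaling the 8 genes gave 0 higher and 3 lower there, and all genes 184 higher and 317 lower. With LPS + DEX against basal 4 of the 8 passed in mRNA, 1 higher and 3 lower, where 22.7% of all genes did (18.5% higher and 4.23% lower), and the other scaling left 1 and 3 of the 8 but 720 higher and 826 lower over all genes, against 1714 and 392. In footprints 1 of 8 was higher after LPS (all genes: 7.62%, with 3.3% higher and 4.32% lower), and 3 of 8 were higher with LPS + DEX (all genes: 4.63%, with 1.77% higher and 2.86% lower). With median-of-ratios scaling 3 and 4 of the 8 were higher, and all genes went from 292 higher and 382 lower to 378 and 279 after LPS, and from 157 and 253 to 198 and 186 with LPS + DEX. TE was higher in 3 of 8 and lower in 1 of 8 after LPS (all genes: 16.6%, with 3.08% higher and 13.6% lower), and higher in 2 and lower in 1 with LPS + DEX (all genes: 14.9%, with 2.68% higher and 12.2% lower). With median-of-ratios scaling TE was higher in 4 and lower in 1 of the 8 after LPS, and higher in 5 and lower in 0 with LPS + DEX, where the fall of Eef2 did not pass. All genes then gave 558 higher and 502 lower after LPS, against 290 and 1277, and 507 and 356 with LPS + DEX, against 252 and 1149. Adding DEX to LPS gave 1 call in footprints, Eef2 (all genes: 6.69%, with 3.14% higher and 3.55% lower). It gave none of 8 in mRNA, where limma called 0% of all genes (183 of 9277 at an unadjusted p under 0.05, and 0 by limma-voom), and none of 8 in TE (all genes: 0.0531%, with 0.0106% higher and 0.0425% lower). The direction of the median differed from that of all genes in TE, at 0.07 for the 8 genes after LPS against -0.34 for all genes, and 0.37 against -0.06 with median-of-ratios scaling. This was not particular to TE. In footprints the medians were 0.13 against -0.07 after LPS and 0.23 against -0.05 with LPS + DEX. In mRNA after LPS they were 0.06 against 0.26, and -0.2 against 0.01 with median-of-ratios scaling. The 8 genes spread widely around the TE median after LPS, with TE changes from -0.94 (Eef2) to 0.71 (Tpt1), or from -0.64 to 1.01 with median-of-ratios scaling.

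Footprints against mRNA within a treatment asks how densely the mRNA was occupied relative to the average read of both libraries. These levels also depend on how much of a transcript is coding, so they are compared within a gene. In basal cells 7 of the 8 genes passed, where 50.7% of all genes tested did (33.4% higher and 17.3% lower; 2361 higher and 2367 lower genes with median-of-ratios scaling, against 3148 and 1628). Tpt1 (-1.43 ± 0.11, log2), Pabpc1 (-1.03 ± 0.17), Eef1b2 (-1 ± 0.09) and Eef1g (-0.87 ± 0.08) were lower in footprints than in mRNA. Eef1d (0.52 ± 0.11), Eef2 (0.39 ± 0.1) and Eef1a1 (0.33 ± 0.08) were higher, and Naca measured -0.18 ± 0.1 (adjusted p = 0.156). The higher 3 did not pass with median-of-ratios scaling (0.25, 0.12 and 0.05), whereas Naca did (-0.46, adjusted p = 0.00293). All 80 ribosomal protein genes were lower in basal cells (median -1.08, all genes 0.21), while of the 8 genes 4 were lower and 3 higher. With median-of-ratios scaling all 80 were again lower, and of the 8 genes 5 were lower and 0 higher. These counts set different genes side by side, whose coding shares can differ, and the difference between the sets was not tested.

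After LPS and with LPS + DEX all 8 genes passed, and in both 3 were higher and 5 lower. Of all genes 51.9% passed after LPS (24.8% higher and 27.1% lower) and 51% with LPS + DEX (23.8% higher and 27.2% lower). Eef2 was on the other side than in basal cells, at -0.54 ± 0.1 after LPS and -0.29 ± 0.1 with LPS + DEX. The second of these was lost with median-of-ratios scaling (-0.23, adjusted p = 0.0855) and without mRNA LPS + DEX replicate 1 (-0.16) or any of the 4 treated footprint libraries (-0.31 to -0.26). Naca measured 0.28 ± 0.1 (adjusted p = 0.0383) and 0.27 ± 0.1 (adjusted p = 0.046), which passed in 7 and 4 of 12 fits without 1 library. The first was lost without mRNA LPS replicate 2 (0.12) or any of the 4 treated footprint libraries, and the second without either mRNA LPS + DEX library or any of the 6 footprint libraries. For Eef1a1, Eef1b2, Eef1g, Tpt1 and Pabpc1 the side of 0 was the same in all 3 treatments and passed in every fit without 1 library. Eef1d (0.32 ± 0.11 and 0.31 ± 0.11 in treated cells) passed in 9 and 10 of these 12.

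**Figure D3:**
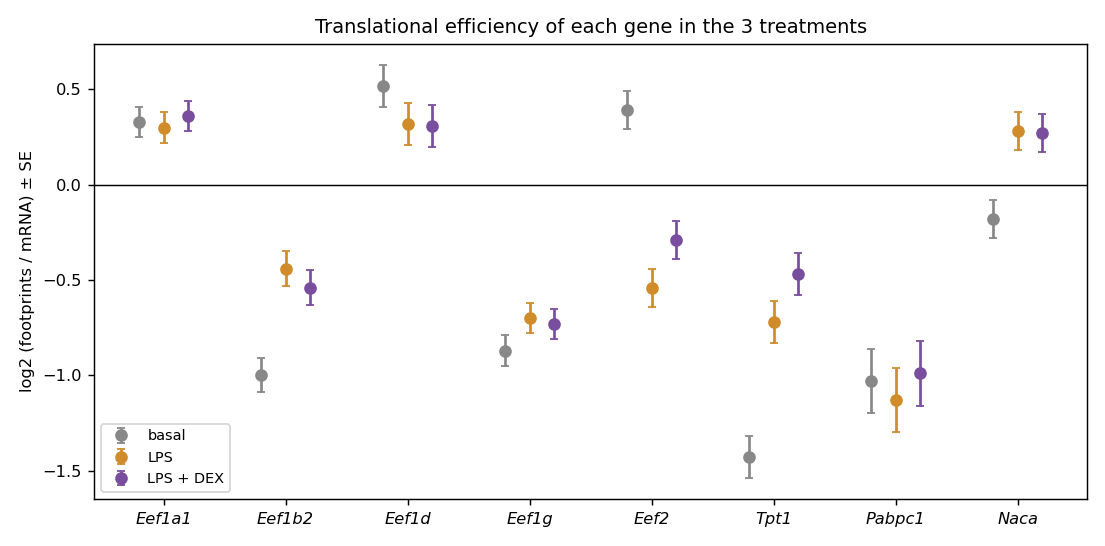
Log2 of footprints over mRNA, with SE, for each of the 8 TOP genes in basal cells (grey), LPS (orange) and LPS + DEX (purple); 0 marks equal shares of both kinds of library. Eef2 falls from 0.39 to below 0 with treatment, Tpt1 climbs from -1.43 to -0.47, and Pabpc1 and Eef1a1 stay within their errors. This is for scaling to library totals. With median-of-ratios scaling, not shown, Eef1a1 went from 0.05 in basal cells to 0.32 after LPS and 0.42 with LPS + DEX.

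Ratios between genes of the same library do not depend on how libraries are scaled. The pairs were chosen after the values were seen and were not tested. Eef1b2 over Eef1g mRNA was 1.19 and 1.18 in basal cells, 0.796 and 0.788 after LPS, and 0.693 and 0.756 with LPS + DEX, so the treated libraries were well apart from basal ones. Their footprint ratio was 1.16 and 1.02, then 0.969 and 0.919, then 0.817 and 0.836, so it too was lower in every treated library. Eef1d over Eef1g stayed at 0.213 to 0.241 in all 6 mRNA libraries, but in footprints it was 0.595 and 0.607 in basal cells and 0.437 to 0.499 in treated ones. Eef2 over Eef1a1 mRNA was 0.243 and 0.224 in basal cells, 0.3 and 0.357 after LPS, and 0.476 and 0.351 with LPS + DEX. In footprints that ratio was 0.259 and 0.23 in basal cells, 0.188 and 0.177 after LPS and 0.264 and 0.258 with LPS + DEX, with the LPS libraries alone at the bottom. Tpt1 over Eef1g was 1.6 and 1.63 in basal mRNA and 0.805 to 1.14 in treated mRNA, against 1.03 to 1.16 in all 6 footprint libraries.

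**Figure D4:**
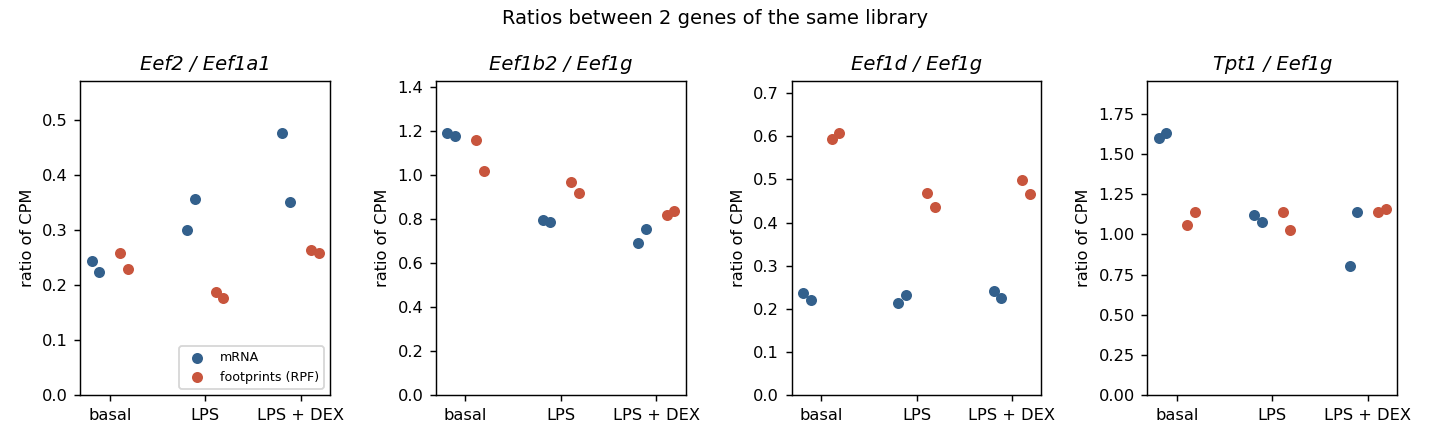
Ratio of CPM between 2 genes of the same library for 4 pairs, in mRNA (blue) and footprints (red); each point is 1 library and axes start at 0. Eef1b2 over Eef1g is highest in basal cells in mRNA (1.19 and 1.18), and Eef2 over Eef1a1 footprints are lowest after LPS (0.188 and 0.177).

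The other TOP mRNAs and the ribosomal proteins give the setting for these 8. Of 80 ribosomal protein mRNAs 49 fell and 0 rose with LPS + DEX against basal (median -0.48, all genes 0.28), where 4.23% of all genes fell and 18.5% rose. Their TE rose in 50 and fell in 1 (median 0.61, all genes -0.34), where 2.68% of all genes rose and 12.2% fell. With median-of-ratios scaling 70 fell in mRNA and 73 rose in TE. Rps15a mRNA measured -0.99 ± 0.13, with a TE change of 1.17 ± 0.14. The 15 further TOP mRNAs of other functions gave 3 higher and 2 lower in mRNA with LPS + DEX (median 0) and 2 higher and 2 lower in TE (median 0.13), beside the same shares of all genes. With median-of-ratios scaling they gave 0 higher and 4 lower in mRNA and 5 higher and 0 lower in TE (median 0.47), so these counts turn on the scaling. The initiation factor genes Eif3l (0.69 ± 0.13) and Eif4b (0.67 ± 0.12) were higher in mRNA, as Eef2 was, and the TE of Eif3l fell by 0.68 ± 0.17. Nap1l1, a histone chaperone, rose in TE by 0.96 ± 0.21 and Pfdn5, a subunit of the chaperone prefoldin, by 0.67 ± 0.19, as Tpt1 did.

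**Figure D5:**
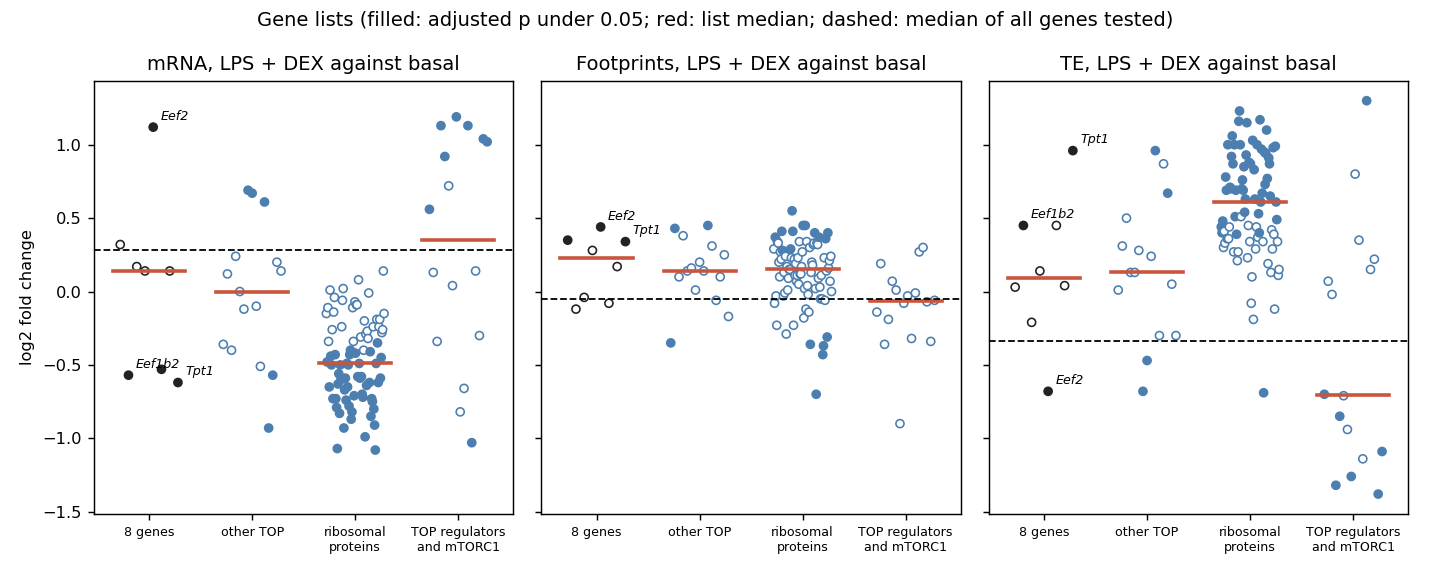
Log2 fold changes of LPS + DEX against basal for the 8 TOP genes (black) and 3 gene lists (blue) in mRNA, footprints and TE; each point is a gene, filled at an adjusted p under 0.05, with the list median in red and the median of all genes tested dashed. Ribosomal proteins lie mostly below 0 in mRNA (median -0.48) and above 0 in TE (0.61), while the 8 genes spread over both sides (medians 0.14 and 0.09).

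Among 19 listed genes of other cytosolic elongation factors and their modifying enzymes, 1 rose in mRNA after LPS and 3 with LPS + DEX, and none fell, where 9.03% and 18.5% of all genes rose. With median-of-ratios scaling 1 rose and 1 fell after LPS, and 1 rose and 4 fell with LPS + DEX. Without mRNA basal replicate 1, 1 rose and 1 fell with LPS + DEX. Of the genes that rose, Vars, the valyl-tRNA synthetase that binds the eEF1B complex, went from 198.3 to 446.5 CPM after LPS (1.16 ± 0.16, adjusted p = 0.0205) and measured 1.46 ± 0.16 with LPS + DEX. Mettl13, a methyltransferase of eEF1A, rose by 0.74 ± 0.2 with LPS + DEX, and Dohh, an enzyme of hypusine synthesis, by 0.66 ± 0.19. TE of Vars fell by 1.44 ± 0.19 after LPS and by 1.23 ± 0.19 with LPS + DEX. Of the 19 genes, TE fell in 2 and rose in 1 after LPS, where 13.6% of all genes fell and 3.08% rose. With LPS + DEX TE fell in 1 and rose in 0, where 12.2% of all genes fell and 2.68% rose. With median-of-ratios scaling TE fell in 1 and rose in 2 after LPS, and fell in 1 and rose in 1 with LPS + DEX. DEX added to LPS raised footprints of Vars (0.51 ± 0.1, adjusted p = 0.00576) and Mettl13 (0.72 ± 0.17), and lowered those of Eif5a (-0.44 ± 0.08, adjusted p = 0.00449), the hypusine-bearing factor that helps ribosomes past difficult peptide bonds. Eef2k, the kinase that inhibits eEF2, was looked at after its values were seen: footprints averaged 12.9 CPM in the basal group against 4.3 CPM in the LPS group, where 3 reads are 3.62 and 3.65 CPM, and no comparison between treatments passed. Btf3, the partner of Naca in the nascent polypeptide-associated complex, rose in footprints after LPS (0.3 ± 0.08, adjusted p = 0.0353). Btf3 footprints fell when DEX was added (-0.66 ± 0.08, adjusted p = 0.000221), while Naca footprints did not pass in either comparison (0.05 and -0.13). Of 13 nascent chain factors tested, 1 rose and 0 fell after LPS, and 0 rose and 1 fell when DEX was added. Of all genes 3.3% rose after LPS and 3.55% fell when DEX was added.

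The 8 genes did not share one profile over the 12 libraries. The correlation of each with the mean of the other 7 ran from -0.901 for Eef1d to 0.948 for Eef1g, a description over 12 libraries that is set largely by the difference between mRNA and footprints. Of 3816 genes with at least 50 CPM on average, the 5 most like the mean profile of the set were Pxmp4 (Pearson 0.975), Rpl13-ps3 (0.97), Dctpp1 (0.969), Rpsa-ps10 (0.965) and Gm47283 (0.964). Rpl13-ps3 and Rpsa-ps10 are pseudogenes of ribosomal protein genes, so their reads can be shared with the parent genes.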

How the data were processed

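Per Ensembl gene, the authors deposited library-size scaled read counts (CPM) with 1 added. This was read from the values: the lowest is 1, and after subtracting 1 all values (100%) are whole multiples of 1 read within 0.1 read. The sources used here name no aligner, counting method, genome build or annotation. Symbols matched 9521 of 9621 identifiers.

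Limma-trend (R 4.3.3, limma 3.58.1) was run on log2(CPM + 1), over the 6 mRNA libraries, the 6 footprint libraries, and all 12 for TE (RPF minus mRNA, or that difference between treatments), with the group as factor. A gene was kept if 2 libraries or more reached the CPM that 10 reads give at median depth and its reads summed to 15 or more. Tests are two-sided, with Benjamini-Hochberg adjustment over all genes tested and a threshold of 0.05. Fits were tried on simulated counts in which a set of genes changed in the LPS footprints only. The simulation held no change in mRNA and no library set apart from the others, so it does not cover those features of the real data. The planned count test was not run, because the values as deposited are not counts. Limma-voom on the reads recovered by subtracting 1 was added after seeing the data. Fold changes are on the log2(CPM + 1) scale.

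The members, lists and rules were chosen with earlier results of these data known. The rule names the 8 genes in every comparison and, per list and comparison, up to 3 passing genes with the largest change. Eef2k and the gene pairs lie outside it. Each p-value sets a group difference against the spread between these replicates, pooled over the groups of a fit and moderated over all genes.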

Additional observations from a re-analysis of the deposited data

How the results depend on the processing

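Of 1344 values of the 8 genes under other settings, 1207 kept direction and side of the threshold, 72 lost a call, 20 gained one and 45 turned direction; none of the turned values had passed. The cause of the changes below was not tested. The planned quasi-likelihood count test was not run. With 2 libraries a group, leaving 1 out leaves a lone library that is assumed to vary like the others. The 8 genes had at least 450 reads in every library. Replicates differed over all genes by a chi-square per degree of freedom of 1.63 (footprints, LPS) to 18.6 (mRNA, basal), where 1 is counting error alone, so counting error was a large part of the spread in the LPS footprints.

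With median-of-ratios scaling all-gene calls in mRNA after LPS were 501 (184 higher, 317 lower) instead of 994 (838 and 156), and in TE with LPS + DEX 863 (507 and 356) instead of 1401 (252 and 1149); of the 8 genes 3 passed in footprints after LPS instead of 1, and 5 in TE with LPS + DEX instead of 3. Turned values under it were, in mRNA after LPS, 0 for Eef1a1, -0.22 for Eef1d and -0.19 for Eef1g, and with LPS + DEX -0.12 for Eef1d, -0.15 for Eef1g and -0.16 for Pabpc1. In footprints with LPS + DEX Eef1d was 0.01. In TE after LPS Eef1a1 was 0.26, Eef1d 0.1 and Pabpc1 0.19, for DEX added to LPS Eef1d and Naca were 0.03 each, and with LPS + DEX Eef1d was 0.13.

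Deviations of replicate 1 from its group mean gave no sign that replicate numbers pair the samples (15 pairs of groups, correlations -0.161 to 0.097). Noise of single libraries can hide such a pairing, so it is not excluded. With the replicate block, mRNA after LPS gave 390 calls over all genes and 1 of the 8, and footprints after LPS 0 of the 8. Among the 8 genes the block ended the calls of Eef1b2 in mRNA after LPS (adjusted p = 0.0591), Naca in mRNA with LPS + DEX (0.05), Eef1a1 in footprints after LPS (0.0762), Naca in TE after LPS (0.0617) and the TE level of Naca with LPS + DEX (0.0584). Footprints after LPS also gave 0 of the 8 with log2(CPM + 2) and with no filter. For DEX added to LPS, TE calls over all genes were 20 with log2(CPM + 2) and 0 with limma-voom, against 5. Limma-voom gave 464 in mRNA after LPS, 619 instead of 410 in footprints with LPS + DEX, and 870 instead of 1567 in TE after LPS.

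Without 1 library at a time, calls among the 8 and over all genes ran as follows. In mRNA they were 0 to 2 and 7 to 2178 after LPS, and 0 to 4 and 1 to 2876 with LPS + DEX, and for DEX added to LPS 0 to 5 over all genes. In footprints they were 0 to 3 and 307 to 727 after LPS, 1 to 2 and 94 to 894 for DEX added to LPS, and 0 to 4 and 97 to 476 with LPS + DEX. In TE they were 3 to 4 and 736 to 2161 after LPS, 0 to 51 over all genes for DEX added to LPS, and 1 to 4 and 546 to 1893 with LPS + DEX. For levels of TE, 7 of the 8 passed throughout in basal cells, 6 to 8 after LPS and 5 to 8 with LPS + DEX.

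Values that turned without 1 library ranged as follows. In mRNA after LPS Eef1d was -0.01 to 0.1. In mRNA for DEX added to LPS Eef1a1 was -0.04 to 0.15, Eef1g 0 to 0.13, Tpt1 -0.33 to 0.04, Pabpc1 -0.54 to 0.16 and Naca -0.27 to 0.04. In mRNA with LPS + DEX Pabpc1 was -0.22 to 0.49. In footprints Eef1b2 after LPS was -0.06 to 0.16, Eef1g and Pabpc1 for DEX added to LPS -0.02 to 0.06 and -0.09 to 0.01, and Eef1d with LPS + DEX -0.13 to 0.05. In TE after LPS Eef1a1 was -0.09 to 0.02 and Pabpc1 -0.24 to 0.02. In TE for DEX added to LPS Eef1a1 was -0.03 to 0.16, Eef1d -0.13 to 0.11, Eef1g -0.1 to 0.03, Pabpc1 -0.2 to 0.5 and Naca -0.17 to 0.14. In TE with LPS + DEX Eef1a1 was -0.06 to 0.13 and Pabpc1 -0.31 to 0.39.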

Other observations

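The counts for genes of TOP control turned on the scaling. Of 16 listed TOP regulators and mTORC1 genes, 6 rose in mRNA after LPS and 7 with LPS + DEX (medians 0.41 and 0.35, all genes 0.26 and 0.28), where 9.03% and 18.5% of all genes rose, and 1 fell with LPS + DEX. With median-of-ratios scaling 1 rose and 0 fell after LPS, and 4 rose and 2 fell with LPS + DEX. Rptor, the mTORC1 subunit raptor, rose from 29.5 to 62.6 CPM after LPS (1.06 ± 0.19, adjusted p = 0.0251), the mTORC1 inhibitor Tsc2 by 1.03 ± 0.17, and Eif4ebp2, which binds the cap-binding factor eIF4E, by 1.34 ± 0.26. Mtor rose by 1.19 ± 0.2 with LPS + DEX. In footprints 1 of the 16 rose after LPS, Ssb (the La protein, 0.47 ± 0.1), and none passed with LPS + DEX. TE fell in 7 of 16 after LPS (median -0.47, all genes -0.34) and rose in 1, Ssb (1.21 ± 0.27), where 13.6% of all genes fell and 3.08% rose. Without mRNA basal replicate 1, 4 fell and 1 rose. With LPS + DEX TE fell in 6 and rose in 1 (median -0.71, all genes -0.34), where 12.2% of all genes fell and 2.68% rose. Under the other scaling 2 rose and 1 fell, both after LPS and with LPS + DEX.

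Of 11 partners and relatives of the poly(A)-binding protein, 2 rose in mRNA after LPS, Eif4g1 (0.82 ± 0.12) and the relative Pabpc4 (0.63 ± 0.13). With LPS + DEX 4 rose in mRNA. Of all genes 9.03% rose after LPS and 18.5% with LPS + DEX. With median-of-ratios scaling 1 rose after LPS, and 2 rose and 1 fell with LPS + DEX. TE of Eif4g1 fell by 0.9 ± 0.14 after LPS and by 1.12 ± 0.14 with LPS + DEX, and footprints of the nuclear poly(A)-binding protein Pabpn1 fell by 0.6 ± 0.13 after LPS. None of the 5 mitochondrial elongation factors and none of the 5 listed termination and recycling factors passed in any of the 9 comparisons between treatments. Of all genes 0% (mRNA, DEX added to LPS) to 22.7% (mRNA, LPS + DEX against basal) passed. With 5 genes in a list, these counts do not show that the factors were unaffected.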
